A study of Mus musculus with 3 samples.

Results

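Cx3cr1 positive macrophages were examined in injured mouse tibialis anterior muscle by single-cell RNA sequencing. They were taken from all 3 libraries by a rule on raw UMI counts, a UMI being 1 counted RNA molecule. A cell was kept with at least 500 detected genes and under 10% mitochondrial UMIs. It was gated as a macrophage with at least 3 UMIs over Adgre1, Csf1r and Fcgr1 and none of Pdgfra, Cd209a or Cd3e. Among gated macrophages, a member had at least 3 UMIs of Cx3cr1 and stayed under a limit for each of 5 other states, here called the arms of the rule. These limits were under 5 UMIs of Ly6c2, under 3 over Cd163, Lyve1 and Cbr2, under 2 over Atp6v0d2 and Rnf128, under 4 over Il1a, Slc7a11 and Ccrl2, and under 5 over Mki67, Top2a, Cdk1, Birc5 and Cenpf. The rule found 1851 members, which were 9.27% of 19974 gated macrophages and 5.25% of 35247 kept cells.

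All mice had received barium chloride in the muscle, which destroys its fibres, and the muscle was collected 4 days later. The 3 groups were young mice given PBS (young PBS), old mice given PBS (old PBS) and old mice given recombinant meteorin-like protein (old rMETRNL), and the labels gave no genotype that differed between them. Each group was 1 library made from pooled mice, so no test between groups was possible. Every interval is an exact 95% interval that covers counting error only, not the spread between mice or between cells. Values of the 3 libraries are given in the order young PBS, old PBS and old rMETRNL throughout.

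The files held 12168, 12568 and 14012 cell barcodes with 218059089, 179295668 and 228966697 UMIs. A total of 188 barcodes occurred in at least 2 libraries, and 1 barcode was a member in at least 2. Members numbered 849, 427 and 575 cells, with 12482005, 5851211 and 7852335 UMIs summed over them. Their median depth was 13922, 13512 and 13121 UMIs per cell, against 14732.5, 15563 and 15226 in the other gated macrophages. Doublet scoring placed 142 members (7.67%) among the highest scores, and these cells were kept.

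CX3CR1 is the G-protein-coupled receptor for fractalkine, the chemokine made by Cx3cl1, which is held on the surface of endothelial and stromal cells until proteases release it. Among blood monocytes the receptor is low on the inflammatory, Ly6C-high cells and high on the patrolling, Ly6C-low cells, and it stays on microglia and several other tissue macrophages. In injured muscle, recruited inflammatory monocytes give way to macrophages of later, restorative states.

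The label names 4 genes. Cx3cr1 (chr9:119901616-120069879, minus strand) is the receptor. Hes1 (chr16:30064384-30067796, plus strand) encodes a transcriptional repressor and is a common target of Notch signalling. Dnase1l3 (chr14:7964533-7994573, minus strand) encodes a secreted nuclease that digests DNA released from dying cells. Themis2 (chr4:132781843-132796387, minus strand) encodes a signalling adaptor of B cells and macrophages. All are protein coding, and the positions are those of GENCODE on GRCm38. The 250 bases before the start of Cx3cr1 and of Themis2 in RefSeq are shown, the first gene being the one that defines the cells and the second a marker that the rule did not use. Of the 4 genes, these 2 were matched in the RefSeq table. They are read 5′ to 3′ on the gene's strand from RefSeq (GRCm38.p6), at chr9:120068297-120068546 and chr4:132796365-132796614, both on the minus strand. RefSeq's start differs from GENCODE's, so the Cx3cr1 stretch lies inside the GENCODE gene and the Themis2 stretch overlaps the 5′ end of its gene. Capitals mark the core word of RBPJ, the DNA-binding partner of Notch, which was searched as TGGGAA and, on the other strand, TTCCCA.
Cx3cr1: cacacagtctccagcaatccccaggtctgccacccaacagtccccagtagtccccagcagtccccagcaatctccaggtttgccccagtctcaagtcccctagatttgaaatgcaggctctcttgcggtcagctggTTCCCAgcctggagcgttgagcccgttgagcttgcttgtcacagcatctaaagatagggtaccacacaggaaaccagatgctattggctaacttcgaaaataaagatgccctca
Themis2: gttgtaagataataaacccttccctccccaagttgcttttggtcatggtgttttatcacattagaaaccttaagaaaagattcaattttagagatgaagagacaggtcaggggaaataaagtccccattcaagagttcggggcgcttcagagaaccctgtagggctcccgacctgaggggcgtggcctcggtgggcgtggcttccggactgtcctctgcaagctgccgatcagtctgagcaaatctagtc
The Cx3cr1 stretch held 1 match, on the other strand and starting 114 bases before the start, and the Themis2 stretch held 0. Neither held the core word of the myeloid factor PU.1, searched as GAGGAA and TTCCTC. Of 32851 RefSeq promoters cut to the same length, 7094 (21.6%) held the RBPJ word and 7639 (23.3%) the PU.1 word. A match is only a string of letters and not a measured site.

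Cx3cr1 itself was set by the rule and is given as a description. Its level in members was 544, 520.1 and 537 CPM, the scale on which all UMIs summed over the members of a library come to the same fixed total. CPM is the unit of every level given here. The other gated macrophages had 125, 121 and 106 CPM. Free RNA gives UMIs in droplets of cells that do not express a gene. Cells gated as fibro/adipogenic progenitors (FAPs), by Pdgfra and no UMI of Adgre1, Csf1r or Fcgr1, had 6.55, 4.79 and 5.80 CPM. This gate leaves out FAP droplets that hold those macrophage UMIs, so the FAP level may understate free RNA. With every cell thinned to 5000 UMIs, a Cx3cr1 UMI was found in 89.6%, 90.7% and 89.4% of members, in 30.5%, 31.5% and 26.3% of the other gated macrophages and in 0.715%, 1.63% and 0.871% of FAPs. The unthinned median depth of FAPs was 26304, 23583 and 25835 UMIs. The level in members was fixed by the rule, and that of the other gated macrophages was above the FAP level in every library.

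The label was compared with the 3 markers that the rule left out. Hes1 in members was 439.6, 229 and 426 CPM, against 94.5, 47.7 and 78.9 in the other gated macrophages. The fold of members over the others was 4.65 (4.50 to 4.81), 4.80 (4.52 to 5.11) and 5.40 (5.19 to 5.62). In every library Hes1 was higher in members than in each of the 6 other macrophage groups set beside them. It was not restricted to macrophages, with 169.6, 197 and 157 CPM in FAPs and 203, 306 and 210.1 in endothelial cells.

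Dnase1l3 in members was 149, 109 and 153 CPM, against 58.9, 39.5 and 39.3 in the others, a fold of 2.53 (2.40 to 2.66), 2.77 (2.54 to 3.01) and 3.90 (3.66 to 4.16). FAPs had 0.818, 0.651 and 0.590. Themis2 was 91.2, 45.8 and 73.2 CPM in members and 53.0, 22.6 and 44.3 in the others, a fold of 1.72 (1.61 to 1.83), 2.02 (1.78 to 2.30) and 1.65 (1.51 to 1.80). All 3 markers were thus higher in members in all 3 libraries, as the label has it, with the smallest contrast for Themis2. Members were chosen on counts of the same cells, so these folds describe the chosen cells.

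**Figure D1:**
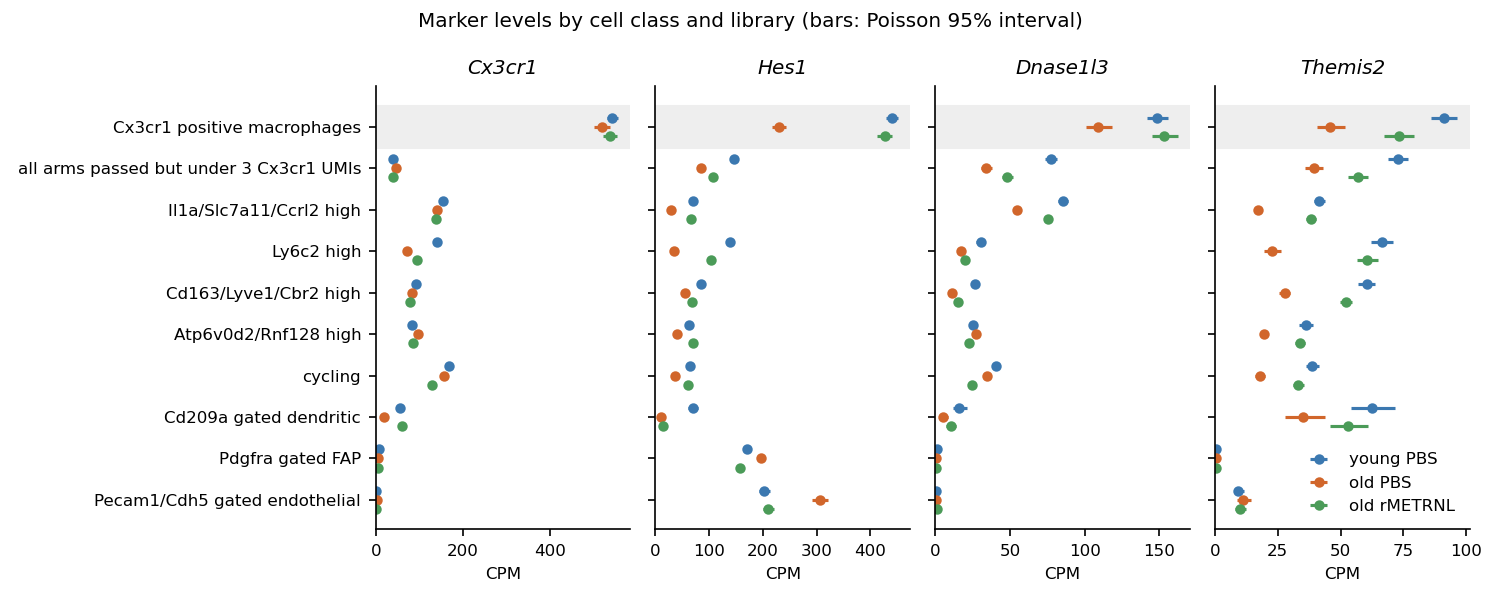
Levels of Cx3cr1, Hes1, Dnase1l3 and Themis2 (CPM, horizontal axes) in members, other macrophage groups and other cell classes (vertical axis), 1 point per library with its Poisson 95% interval. Hes1 in members was 439.6, 229 and 426 CPM in young PBS, old PBS and old rMETRNL, and Cx3cr1 was at most 6.55 CPM in FAPs and endothelial cells.

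A marker was read in part of the members. With every cell thinned to 5000 UMIs, a Hes1 UMI was found in 34.5% (31.3 to 37.8), 26.0% (21.8 to 30.4) and 31.7% (27.9 to 35.8) of members, against 14.7%, 9.71% and 12.2% of the others. A Dnase1l3 UMI was found in 27.7%, 20.5% and 25.2% of members and a Themis2 UMI in 34.2%, 19.5% and 26.3%. Most members held no Hes1 UMI at this depth. The Hes1 level per cell, unthinned, had a median of 0 in every library and a 90th percentile of 1529, 496 and 1574 CPM. The variance of Hes1 over its mean after thinning was 12.2, 14.3 and 14.6, against 1.17, 1.23 and 1.45 for Themis2, where 1 is the value of pure counting. Hes1 RNA was therefore concentrated in a minority of members. The Themis2 ratio was above 1 too, and this ratio tends towards 1 as the mean of a gene falls.

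Members with at least 3 Hes1 UMIs after thinning were 21.5%, 10.5% and 18.7% of the thinned members, and those with 0 were 65.5%, 74.0% and 68.3%. Themis2 in these Hes1-high members was 133 (109.9 to 159), 63.6 (34.8 to 107) and 130.2 (101 to 165) CPM. In members without Hes1 its intervals were 69.8 to 91.3, 34.0 to 55.4 and 49.5 to 71.9. Mrc1, which encodes the mannose receptor, was at 105, 118 and 128 against 193, 304 and 223. Apoe, a lipid carrier, was at 41618, 44641 and 46947 against 34412, 34096 and 37626, and Ppfia4, a liprin family scaffold, at 136, 136 and 138 against 84.0, 50.8 and 76.5. Dnase1l3 was at 219.9 (190.4 to 253), 90.9 (55.5 to 140.4) and 225 (186 to 269) against 116 (104 to 129.8), 85.5 (71.6 to 101) and 149 (132 to 167), with overlapping intervals in old PBS and higher values in Hes1-high members in the other libraries. In each library Themis2, Apoe and Ppfia4 were higher and Mrc1 lower in the Hes1-high members, although the Themis2 intervals of old PBS overlapped.

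The ligand of the receptor was nearly absent from members. Cx3cl1 (chr8:94772009-94782427, plus strand) was at 0.320, 0.513 and 1.02 CPM in members. It was at 16.8, 19.0 and 16.0 in FAPs and at 32.0, 37.5 and 43.3 in endothelial cells, so its RNA was read in the stromal and vascular cells of the same muscle. Adam10 and Adam17, which encode proteases able to release it, were at 73.6, 88.9 and 80.9 and at 125, 159 and 136 CPM in members.

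Members made up 12.8% (11.96 to 13.6), 6.87% (6.25 to 7.52) and 8.10% (7.48 to 8.76) of gated macrophages. Old PBS was 0.54 (0.48 to 0.61) times young PBS, and old rMETRNL was 1.18 (1.04 to 1.34) times old PBS and 0.64 (0.57 to 0.71) times young PBS. Young PBS had the highest share, and the 2 old libraries were closer to each other than to it.

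A gate on UMIs depends on the depth of a cell. When cells were thinned to 5000 UMIs before gating, the shares were 9.51%, 6.65% and 7.41%, with 187, 290 and 203 gated cells left out as shallower, of which 9, 7 and 8 were members. Old PBS was then 0.70 (0.61 to 0.80) times young PBS, and old rMETRNL was 1.11 (0.97 to 1.28) times old PBS, within counting error of 1. Thinning to 10000 UMIs gave 14.1%, 8.48% and 8.83%, and old rMETRNL over old PBS was 1.04 (0.91 to 1.19). At that depth 1283, 1205 and 1361 gated cells were left out as shallower, of which 140, 88 and 131 were members, so these shares cover the deeper cells alone. Young PBS had the highest share at each depth, although at 2000 UMIs old PBS over young PBS was 0.80 (0.60 to 1.05). A difference between the 2 old libraries was thus not detectable at 5000 UMIs, nor at 10000 UMIs among the deeper cells.

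The share also depended on the other arms. Macrophages with at least 3 Cx3cr1 UMIs, whatever their other genes, were 32.5% (31.4 to 33.7), 29.6% (28.5 to 30.8) and 26.6% (25.6 to 27.7) of gated macrophages. On this count old PBS was 0.91 (0.86 to 0.97) times young PBS, and old rMETRNL was 0.90 (0.84 to 0.96) times old PBS. This last ratio lay on the other side of 1 from that of the share of members. Of these 2166, 1842 and 1890 cells, 39.2%, 23.2% and 30.4% were members. The arm on Il1a, Slc7a11 and Ccrl2, which encode a cytokine, a cystine transporter and an atypical chemokine receptor, took out 37.1%, 56.1% and 38.8%, alone or with others. The arm on Atp6v0d2, a subunit of the proton pump, and Rnf128, a ubiquitin ligase, took out 10.6%, 30.0% and 19.1%. The Ly6c2 arm took out 10.99%, 4.61% and 9.26%, the Cd163, Lyve1 and Cbr2 arm 14.9%, 16.6% and 23.0% and the cycling arm 14.96%, 15.3% and 17.8%. Old PBS lost more Cx3cr1-reading cells than the other libraries to the first pair of these arms and fewer to the Ly6c2 arm.

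**Figure D2:**
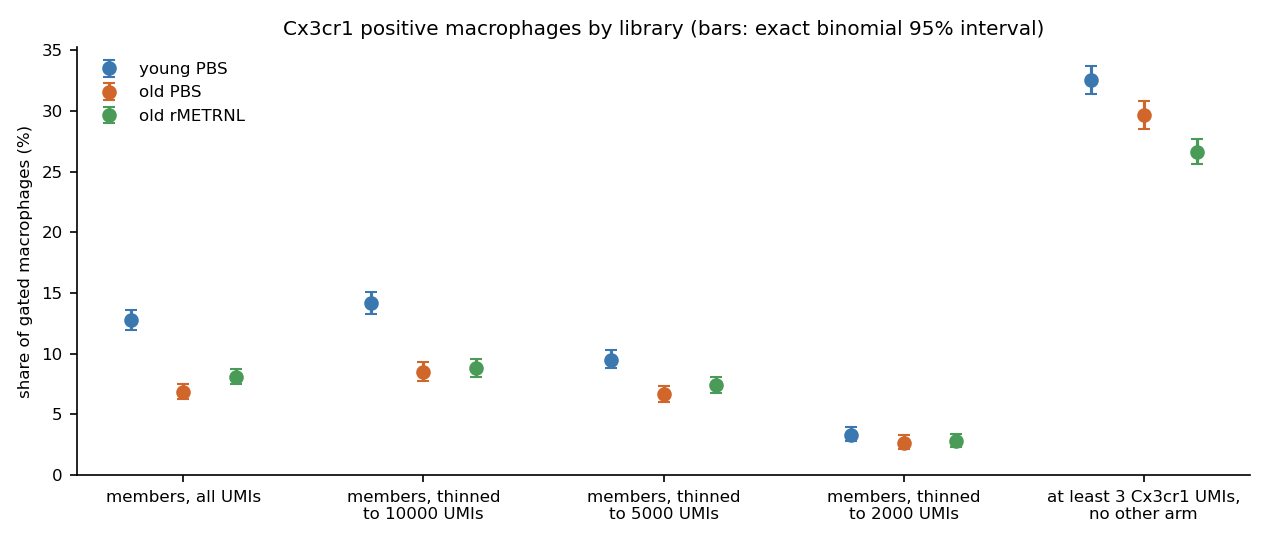
Share of gated macrophages (percent, vertical axis) that were members with all UMIs and after thinning each cell to 10000, 5000 or 2000 UMIs, and the share with at least 3 Cx3cr1 UMIs and no other arm. Each point is 1 library with its exact binomial 95% interval, and the share of members with all UMIs was 12.8%, 6.87% and 8.10% in young PBS, old PBS and old rMETRNL.

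Members were next set against all other gated macrophages of the same library. Of 14971 genes outside the rule that had at least 50 UMIs, 108 (0.721%) were at least 2-fold higher in members in all 3 libraries and 337 (2.25%) at least 2-fold lower. At 1.5-fold these were 431 (2.88%) and 722 (4.82%). Since the arms keep other states out of the members alone, part of this contrast was fixed by the choice. A closer comparison used cells that passed every arm but had under 3 Cx3cr1 UMIs, here called the nearest neighbours, 1387, 1119 and 1155 cells with a median depth of 11899, 9663 and 10876 UMIs. Against them 17 of 12301 genes (0.138%) were at least 2-fold higher in all 3 libraries and 54 (0.439%) at least 2-fold lower. At 1.5-fold these were 131 (1.06%) and 186 (1.51%).

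Among the 25 genes highest in members over the others, ranked by the fold nearest 1 among the libraries, were Hes1, Dnase1l3, AW011738, Ppfia4, F11r, Il16, Tlr12, Tifab, Ciita, Tspan13, Rogdi, Mtus1, Ppcdc, Abi3, Bmyc, Pdgfb, Hpgd, Lpcat2, Rgs2, Tmem176a, Tmcc3, Itgal, Cd72 and Dusp6. F11r, which encodes a junctional adhesion molecule, was at 48.8, 40.7 and 41.3 CPM in members against 20.3, 18.1 and 13.2 in the others. Itgal, the alpha chain of the integrin LFA-1, was at 91.4, 98.6 and 93.7 against 45.1, 55.0 and 34.2. Tspan13, a tetraspanin, was at 169, 162 and 172 against 84.1, 77.2 and 63.5. The members of the 3 libraries had like levels of these 3 surface proteins' RNA.

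Pdgfb, a growth factor for pericytes and fibroblasts, was at 56.6, 44.1 and 68.9 CPM against 30.3, 20.7 and 24.5, a fold of 1.87 (1.72 to 2.03), 2.13 (1.87 to 2.43) and 2.81 (2.56 to 3.08). Lpcat2, which makes the lipid mediator platelet-activating factor, was at 231, 237 and 235 against 110.0, 128 and 93.6, and Hpgd, which breaks down prostaglandins, at 92.3, 71.3 and 102 against 49.7, 36.2 and 40.2. Members thus had more RNA of an enzyme that makes a lipid mediator and of one that removes another. Il16, a cytokine that binds CD4, was at 44.6, 23.2 and 34.8 against 19.9, 10.6 and 15.2, and Tlr12, an endosomal receptor for profilin, at 26.9, 23.6 and 25.1 against 9.37, 10.8 and 7.09. Cd72, an inhibitory receptor also known from B cells, was at 199, 132 and 176 against 113, 60.3 and 67.5, and Rgs2, a brake on G-protein signalling, at 481, 329.7 and 417 against 262, 181 and 226.

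Most of these genes kept their direction against the nearest neighbours. Of the 25, 23 were higher in members in all 3 libraries and 15 by at least 1.5-fold, beside 1.06% of all genes at 1.5-fold. The share of all genes higher in any amount was not counted for this comparison. The neighbours are part of the others against which the 25 were ranked, so this result was in part fixed by the choice. Hes1 had folds of 3.01 (2.87 to 3.15), 2.72 (2.504 to 2.97) and 4.00 (3.76 to 4.26), and Dnase1l3 had 1.92 (1.79 to 2.06), 3.20 (2.81 to 3.64) and 3.18 (2.88 to 3.50). Themis2, by contrast, had 1.25 (1.15 to 1.36), 1.17 (0.998 to 1.36) and 1.29 (1.15 to 1.44). Tmem176a, a membrane protein, was among those that did not keep their direction in every library, at 1.19, 0.96 and 1.24.

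**Figure D3:**
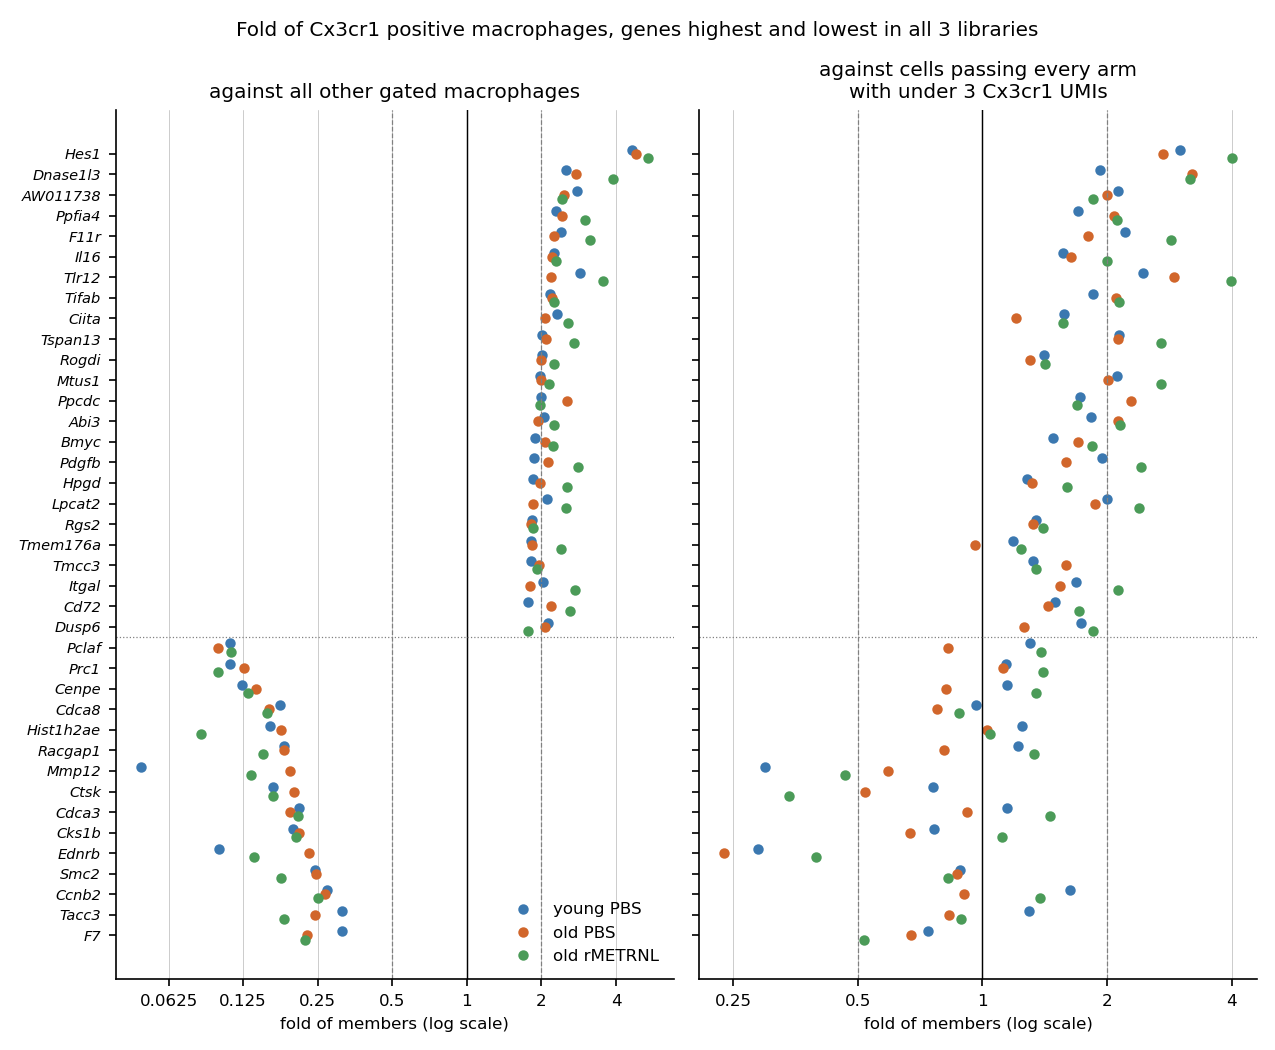
Fold of members (log scale, horizontal axes) for genes among the 25 highest and the 15 lowest (vertical axis), against all other gated macrophages on the left and against cells passing every arm with under 3 Cx3cr1 UMIs on the right, 1 point per library. On the right Hes1 was at 3.01, 2.72 and 4.00 in young PBS, old PBS and old rMETRNL, and 6 of the 15 lower genes were below 1 in all 3 libraries.

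The list of tissue-resident and homeostatic genes was mixed. Its 19 measured genes had a median log2 ratio over the other gated macrophages of 0.27, beside -0.05 over all genes, and 5 were at least 1.5-fold higher in all 3 libraries and 4 at least 1.5-fold lower, beside 2.88% and 4.82% of all genes. In any amount, 10 were higher in all 3 libraries and 6 lower, beside 23.9% and 34.4% of all genes, and 2 and 2 passed 2-fold, beside 0.721% and 2.25%. The 5 higher genes at 1.5-fold were Tmem119, P2ry13, Olfml3, P2ry12 and Gpr34. Tmem119, a surface protein, was at 15.1, 11.96 and 15.03 CPM against 6.52, 5.54 and 5.30, P2ry13, a receptor for ADP, at 20.7, 17.4 and 20.5 against 8.81, 8.34 and 9.29, and Olfml3, a secreted protein, at 126, 100.2 and 151 against 71.6, 64.0 and 68.0. Against the nearest neighbours Tmem119 had folds of 3.21 (2.46 to 4.21), 2.003 (1.41 to 2.85) and 2.54 (1.89 to 3.43), P2ry13 had 2.26, 2.60 and 2.59 and Olfml3 had 2.30, 2.38 and 2.45. P2ry12, another ADP receptor, was at 55.1, 58.6 and 55.3 against 31.3, 32.4 and 34.5 in the other gated macrophages. The 4 lower genes at 1.5-fold were Timd4, Vsig4, Gas6 and F13a1, and Mrc1 and Folr2, a folate receptor, were below the others in every library. Mrc1 was at 178, 273 and 196 against 338, 394 and 455, and Folr2 at 272, 186 and 227 against 403, 331 and 466.

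Monocyte genes were also split. The 16 genes of classical, Ly6C-high monocytes had a median log2 ratio of -0.90, and 9 were at least 1.5-fold lower in all 3 libraries, beside 4.82% of all genes. The Ly6c2 arm keeps Ly6c2-high cells out of the members alone, so part of this direction was fixed by the choice. Plac8, a small cysteine-rich protein, was at 121, 47.0 and 92.3 CPM against 234, 85.8 and 222. Ccr2, the receptor that draws monocytes from blood, was the 1 gene of the list that was higher in all 3 libraries, at 189, 182 and 184 against 144, 105 and 136. The 15 genes of patrolling monocytes had a median log2 ratio of 0.39, with 2 at least 1.5-fold higher and 3 at least 1.5-fold lower, beside 2.88% and 4.82%. Against the nearest neighbours the median of the non-classical monocyte genes was -0.37. Itgal and Adgre4, an adhesion receptor at folds of 1.91, 1.91 and 2.68, were the higher ones. Cd36, a fatty acid receptor, was at 159.8, 201 and 186 against 456, 657 and 608. Nr4a1, the factor that patrolling monocytes need, was at 159, 145 and 178 against 158, 104 and 136, a fold of 1.01 (0.96 to 1.06), 1.39 (1.30 to 1.49) and 1.31 (1.24 to 1.39).

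Most genes of antigen presentation on MHC class II were higher in members than in the others. Of 13 measured genes, 12 were higher in all 3 libraries in any amount, beside 23.9% of all genes. At 1.5-fold there were 3, beside 2.88%, and at 2-fold 1, beside 0.721%. The list had a median log2 ratio of 0.54. Ciita (chr16:10480059-10528418, plus strand), the master regulator of the class, was at 60.6, 50.1 and 52.5 CPM against 26.1, 24.1 and 20.4. H2-Aa was at 2544, 3452 and 2586 against 1962, 2526 and 1521, and the invariant chain Cd74 at 6139, 7829 and 6077 against 4512, 5374 and 3422. Against the nearest neighbours the median of the list was -0.080, with H2-Aa at folds of 0.90 (0.89 to 0.91), 0.73 (0.71 to 0.74) and 0.90 (0.89 to 0.92) and Ciita at 1.57 (1.42 to 1.75), 1.21 (1.04 to 1.40) and 1.56 (1.36 to 1.79). The regulator thus kept its direction there and H2-Aa did not.

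Chemokine ligands were often lower in members. Of 18 chemokine ligands, 10 were at least 1.5-fold lower in members in all 3 libraries and 0 at least 1.5-fold higher, beside 4.82% and 2.88% of all genes, with a median log2 ratio of -0.82. Ccl7, which recruits monocytes, was at 85.8, 163 and 142 CPM against 445, 398 and 557, and Cxcl2, which recruits neutrophils, at 552, 1086 and 724 against 1686, 1991 and 1828. Cxcl16, a chemokine that like fractalkine is held on the cell surface, was higher, at 586, 663 and 626 against 429.9, 475 and 351. Of 22 cytokines and growth factors, 1 was at least 1.5-fold higher in all 3 libraries, Pdgfb, and 3 were at least 1.5-fold lower, beside 2.88% and 4.82% of all genes. Igf1, a growth factor for muscle, was at 175, 189 and 164 against 238, 264 and 252, and Tnf at 68.1, 105 and 74.5 against 155, 157 and 144. Metrnl, the gene of the protein given to the third group, was at 121, 171 and 149.8 CPM in members and at 196, 211 and 219 in the others, with folds of 0.62 (0.58 to 0.65), 0.81 (0.76 to 0.87) and 0.69 (0.65 to 0.73).

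Other macrophage programmes were also counted. All 21 cell cycle genes outside the rule were lower in all 3 libraries, 14 by at least 2-fold, beside 2.25% of all genes, a direction set by the cycling arm. Retnla, induced by interleukin 4, was at 1.12, 4.44 and 3.44 CPM against 88.0, 121 and 97.0, and Spp1, the gene of osteopontin, at 1317, 1333 and 1748 against 2360.0, 2514 and 3143. Of 15 genes of glycolysis and hypoxia, 5 were at least 1.5-fold lower in all 3 libraries, beside 4.82% of all genes, and 0 at least 2-fold lower. In any amount all 15 were lower, beside 34.4% of all genes, with Ldha at 263, 240.5 and 273 against 415, 364 and 444. Of 27 lineage transcription factors, 0 were at least 1.5-fold higher in all 3 libraries and 1 at least 1.5-fold lower, beside 2.88% and 4.82% of all genes. Apoe was higher, at 35181, 36235 and 37904 against 23317, 22731 and 20060.0.

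The 15 lowest named genes were Pclaf, Prc1, Cenpe, Cdca8, Hist1h2ae, Racgap1, Cdca3, Cks1b, Smc2, Ccnb2 and Tacc3, which belong to dividing cells, and Mmp12, Ctsk, Ednrb and F7. Mmp12, macrophage elastase, was at 8.25, 47.7 and 35.5 CPM against 171, 247 and 265. Ctsk, cathepsin K, was at 13.9, 12.3 and 7.51 against 84.3, 61.2 and 45.8, and Ednrb, an endothelin receptor, at 3.04, 8.55 and 7.90 against 30.4, 37.1 and 57.3. The nearest neighbours are part of the cells against which the 15 genes were ranked, and the share of all genes below 1 there was not counted. Against the nearest neighbours, 6 of the 15 genes were below 1 in all 3 libraries. Ednrb was one of them, and Retnla, named above from a list, was below 1 there too, at folds of 0.29, 0.24 and 0.40 for Ednrb and 0.0119, 0.0170 and 0.0353 for Retnla.

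The genes of Notch signalling had no common direction. Of 15 measured Notch receptors, partners, ligands and targets, 1 was at least 2-fold higher in members in all 3 libraries, Hes1, beside 0.721% of all genes, and the median log2 ratio was -0.05. In any amount, 5 were higher in all 3 libraries, Hes1, Notch4, Maml2, Nrarp and Dtx4, and 5 were lower, Notch1, Notch2, Rbpj, Jag1 and Dll1. The shares of all genes were 23.9% higher and 34.4% lower. Notch1 was at 24.8, 44.4 and 26.5 CPM against 43.8, 56.6 and 39.4, and Notch2 at 55.2, 51.6 and 46.4 against 57.6, 56.2 and 50.7. Rbpj was at 87.2, 129 and 109 against 132, 157 and 162. Of the 25 highest named genes, 17 had a promoter entry, and 6 of these held the RBPJ word and 6 the PU.1 word, beside the 21.6% and 23.3% of all promoters given above. A gene was counted if any of its promoters held the word, whereas the shares are of single promoters. The counts and the shares are therefore not like for like.

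Members were also set against 3 macrophage groups, those that the Cd163/Lyve1/Cbr2, Ly6c2 and Atp6v0d2/Rnf128 arms take out, each without cycling cells and each allowed to share cells with the others. The first had at least 3 UMIs over Cd163, Lyve1 and Cbr2 (1134, 1205 and 1834 cells). Against it 268 genes (1.79%) were at least 2-fold higher in members in all 3 libraries and 216 (1.44%) lower, and at 1.5-fold 666 (4.45%) and 655 (4.38%). The fold of members for H2-Aa was 3.65, 2.82 and 4.41, for Itgal 4.18, 3.55 and 5.41 and for Dnase1l3 5.60, 10.002 and 10.12. Mrc1 was lower in members, at 0.28, 0.36 and 0.26 times. Members thus stood above this group in these 3 genes and below it in Mrc1.

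The second group had at least 5 Ly6c2 UMIs (1060, 534 and 1062 cells). Against it 278 genes (1.86%) were at least 2-fold higher in members in all 3 libraries and 187 (1.25%) lower, and at 1.5-fold 893 (5.96%) and 553 (3.69%). Plac8 was at 0.124, 0.0990 and 0.0923 times. C1qa, a complement gene of mature macrophages, had a fold of 1.91, 2.44 and 2.16, H2-Aa was at 0.62, 0.74 and 0.74 times and Ccr2 at 0.54, 0.88 and 0.53 times. Members thus had less Plac8 and H2-Aa RNA and more C1qa RNA than this group.

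The third group had at least 2 UMIs over Atp6v0d2 and Rnf128 (764, 1697 and 1346 cells). Against it 438 genes (2.93%) were at least 2-fold higher in members in all 3 libraries and 209 (1.4%) lower, and at 1.5-fold 1112 (7.43%) and 620 (4.14%). Gpnmb, a lysosomal glycoprotein, was at 0.29, 0.34 and 0.33 times, Spp1 at 0.27, 0.33 and 0.30 times and Ctsl, cathepsin L, at 0.177, 0.22 and 0.167 times. Ccr2 had a fold of 3.70, 5.22 and 4.14 and Plac8 of 4.23, 3.08 and 2.87. Ccr2 and Plac8 in members thus lay between the second and the third group in every library. Against the first group, Plac8 was lower in members, at 0.54, 0.47 and 0.42 times, and Ccr2 higher, at 1.52, 1.73 and 1.52 times. Hes1 and Dnase1l3 did not lie between groups, being at least 3.16-fold and at least 4.03-fold higher in members than in each of the 3 groups in every library. The cells that the Il1a/Slc7a11/Ccrl2 arm takes out were not among these 3 groups, and the Dnase1l3 folds against the nearest neighbours, given above, were smaller.

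Levels were then followed across Cx3cr1 UMIs among cells passing every other arm. Hes1 in cells with 0, 1, 2, 3 to 4, 5 to 7 and 8 or more Cx3cr1 UMIs was 105, 229, 213, 392, 383 and 505 CPM in young PBS. It was 62.4, 106, 149, 161, 237 and 293 in old PBS and 76.2, 150.1, 198, 279, 419.7 and 574 in old rMETRNL. Hes1 was thus higher in the cells with most Cx3cr1 than in those with none in every library. At the threshold, cells with 2 UMIs, just outside the rule, numbered 206, 137 and 145 and had 213 (195 to 231), 149 (129.7 to 169) and 198 (177 to 221) CPM of Hes1. Cells with 3 UMIs, just inside, numbered 150, 98 and 118 and had 393 (366 to 422), 102 (84.7 to 121) and 239.6 (215 to 266). By these values the step at the threshold was upward in young PBS and old rMETRNL and downward in old PBS. In old PBS, however, cells with 3 to 4 UMIs, at 161 CPM, were above the 149 of cells with 2. Hes1 RNA lay in a minority of cells, and these intervals do not cover that spread, so the steps were not tested.

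Depth also moved with these bins. The median UMIs per cell was 11899, 9206 and 10767 at 0 Cx3cr1 UMIs and 14936, 14759 and 13841 at 8 or more. With cells thinned to 5000 UMIs before binning, Hes1 was 108, 49.2 and 76.2 CPM at 0 Cx3cr1 UMIs and 313, 134 and 353 at 3 to 4, so the relation was present at equal depth. Dnase1l3, unthinned, was at 63.0, 21.6 and 32.9 with 0 Cx3cr1 UMIs and at 148, 144 and 151 with 8 or more, and Themis2 at 70.7, 39.5 and 54.2 and 94.1, 56.6 and 93.0. Mrc1 was at 314, 482 and 389 and 170.0, 222 and 172, and Ctsl at 1211, 907 and 1192 and 575, 553 and 653. The 3 markers were thus higher, and Mrc1 and Ctsl lower, in the cells with most Cx3cr1.

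**Figure D4:**
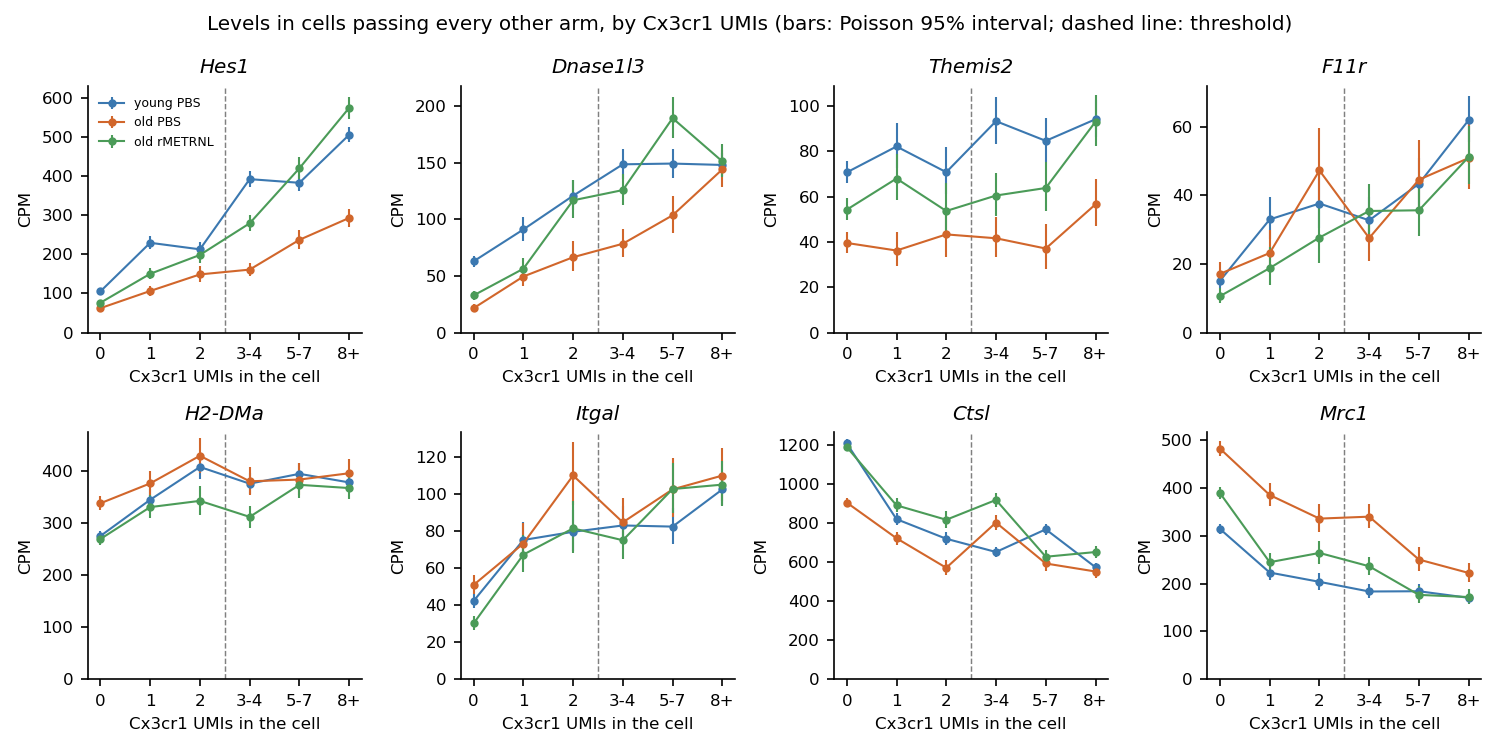
Levels of 8 genes (CPM, vertical axes) in cells passing every arm but the Cx3cr1 one, by the number of Cx3cr1 UMIs in the cell (horizontal axes), 1 line per library with Poisson 95% intervals and the threshold as a dashed line. Hes1 in old rMETRNL was 76.2 CPM at 0 Cx3cr1 UMIs and 574 at 8 or more, while Mrc1 was 389 and 172.

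RNA of other cell types differed between the libraries' members. The 10 FAP markers summed to 806, 347 and 409 CPM in members and to 604, 528 and 521 in the other gated macrophages, with Pdgfra at 0 by the rule and 49.3% of the young PBS UMIs in 5 cells. The 9 endothelial markers, all detected, summed to 94.0, 149.9 and 307 in members and 356, 395 and 383 in the others, with 48.1% of the old rMETRNL UMIs of members in 5 cells. The 10 myogenic markers summed to 74.2, 142 and 82.5 against 91.1, 185 and 157, with Pax7 at 0 in old PBS members. A few cells thus held much of the FAP marker RNA in young PBS members and of the endothelial marker RNA in old rMETRNL members. Among blood cells, markers of T and NK cells summed to 2.40, 2.22 and 2.16 CPM in members and 9.86, 4.83 and 4.35 in the others, and those of mast cells to 1.04, 1.03 and 1.66 against 5.22, 1.70 and 2.77. Dendritic cell markers summed to 20.3, 12.3 and 23.4 against 26.6, 19.2 and 22.5, and erythroid ones to 24.2, 32.3 and 31.1 against 214, 49.6 and 207. T and NK, mast and erythroid markers were thus lower in members in every library. Glial markers summed to 32.0, 22.9 and 48.4 CPM in members and 24.1, 24.2 and 21.9 in the others, with 48.9% of the old rMETRNL UMIs of members in 5 cells. The B cell list, mostly Ighm, was higher in members in every library, at 211, 156 and 153 against 148, 90.5 and 114, and its part in the results was not tested. The neutrophil list, mostly Csf3r, summed to 59.0, 68.0 and 59.2 against 77.8, 64.0 and 54.3. Cd8a, Ly6g and Cpa3 were at 0 in members of every library. When cells with over 0.2% of their UMIs in FAP, endothelial, myogenic or tendon markers were left out, 15, 6 and 18 members were lost. The tendon markers were Tnmd, Thbs4, Fmod, Comp, Scx and Kera.

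The age contrast compares members of old PBS with those of young PBS. Of 10649 genes, 175 (1.64%) were at least 2-fold higher in old PBS and 339 (3.18%) at least 2-fold lower. At 1.5-fold these were 753 (7.07%) and 961 (9.02%). Hes1 in old PBS was 0.52 (0.49 to 0.55) times young PBS, Dnase1l3 0.73 (0.67 to 0.80) times and Themis2 0.50 (0.44 to 0.57) times. The other gated macrophages had 0.50, 0.67 and 0.43 times. The 3 markers were thus lower in old PBS in members and in the other macrophages alike.

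The treatment contrast compares members of old rMETRNL with those of old PBS. In members 317 genes (2.98%) were at least 2-fold higher in old rMETRNL and 87 (0.817%) at least 2-fold lower. At 1.5-fold these were 878 (8.24%) and 445 (4.18%). Hes1 was 1.86 (1.74 to 1.98) times old PBS, Dnase1l3 1.40 (1.27 to 1.55) times and Themis2 1.60 (1.38 to 1.86) times, beside 1.65, 0.996 and 1.96 in the other gated macrophages. Old rMETRNL over young PBS was 0.97 (0.93 to 1.01) for Hes1, 1.03 (0.96 to 1.11) for Dnase1l3 and 0.80 (0.73 to 0.89) for Themis2, and on that contrast 144 genes (1.35%) were at least 2-fold higher and 101 (0.948%) lower. The age and treatment contrasts share the old PBS library, so a low value in it gives opposite ratios in the pair.

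Interferon-stimulated genes differed in members between the libraries. All 17 measured genes were lower in old PBS than in young PBS, beside 52.5% of all genes, 12 by at least 2-fold, beside 3.18%, with a median log2 ratio of -1.13 beside -0.02 over all genes. All 17 were higher in old rMETRNL than in old PBS, beside 55.2% of all genes, 5 by at least 2-fold, beside 2.98%, with a median of 0.69 beside 0.04. Ifit3, an antiviral RNA-binding protein, was at 223, 56.4 and 158 CPM, 0.25 (0.22 to 0.28) times in old PBS over young PBS and 2.80 (2.47 to 3.17) times in old rMETRNL over old PBS. Isg15, a ubiquitin-like protein, was at 225, 82.0 and 207, and Irf7, a transcription factor of the interferon response, at 647, 322 and 458. Each of these 3 genes was highest in young PBS, lowest in old PBS and between in old rMETRNL. After thinning, an Ifit3 UMI was found in 46.7%, 16.9% and 33.2% of members and an Isg15 UMI in 49.8%, 24.5% and 39.7%.

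The other gated macrophages had nearly the same medians of this list, -1.12 in the age contrast and 0.73 in the treatment contrast. Cxcl10, a chemokine induced by interferon, was at 518, 172 and 483 CPM in members. Its ratio was 0.33 (0.31 to 0.36) in the age contrast, beside 0.44 in the others, and 2.80 (2.62 to 3.01) in the treatment contrast, beside 1.64. Cxcl9, another such chemokine, had 0.39 (0.34 to 0.45) beside 0.83 and 3.18 (2.78 to 3.64) beside 1.09, but it was read in 9.52%, 8.33% and 11.3% of thinned members, and 47.4%, 47.0% and 38.8% of its UMIs lay in 5 cells. The differences between members and the others in these ratios were not tested.

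**Figure D5:**
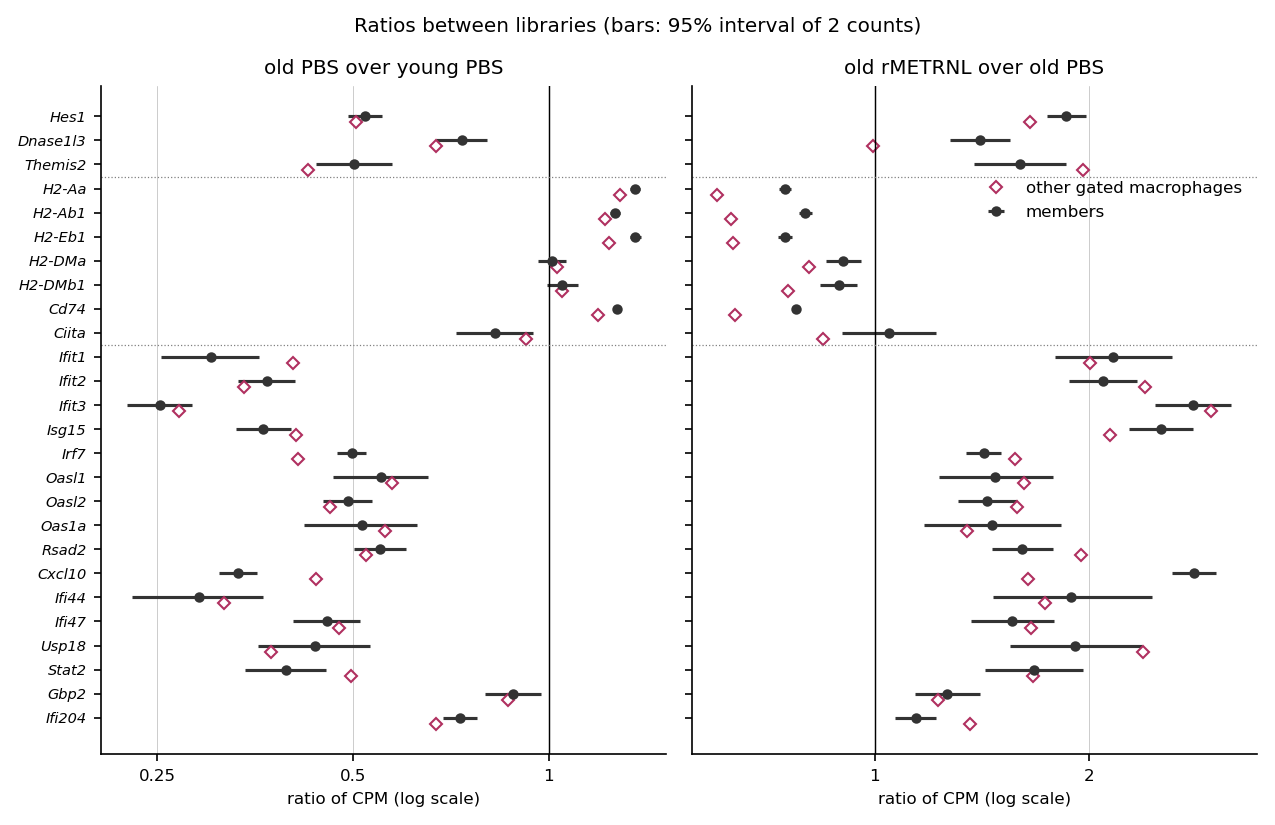
Ratios of CPM between libraries (log scale, horizontal axes) for 3 markers, 7 MHC class II genes and interferon-stimulated genes (vertical axis), with members as filled points with the 95% interval of 2 counts and the other gated macrophages as open diamonds. All interferon-stimulated genes plotted were below 1 in members in old PBS over young PBS and above 1 in old rMETRNL over old PBS.

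H2-Aa and Cd74 were higher in old PBS than in either other library, in members and in the other gated macrophages. H2-Aa was at 2544, 3452 and 2586 CPM in members, 1.36 (1.33 to 1.38) times in the age contrast and 0.75 (0.73 to 0.76) times in the treatment contrast. Cd74 had 1.28 (1.26 to 1.29) and 0.78 (0.77 to 0.79) times. In the other gated macrophages H2-Aa had 1.29 and 0.60 times, and Cd74 1.19 and 0.64 times. Their regulator Ciita had 0.83 (0.72 to 0.95) and 1.05 (0.90 to 1.22) times, and the list of 12 genes had median log2 ratios of 0.04 and -0.17 in members, beside 0.05 and -0.30 in the others. The list as a whole had no common direction with age, with 7 genes higher and 5 lower, beside 47.5% and 52.5% of all genes, and 0 past 1.5-fold on either side, beside 7.07% and 9.02%. In the treatment contrast 3 were higher and 9 lower, beside 55.2% and 44.8% of all genes, and the 1 gene past 1.5-fold, H2-Oa, was on the higher side, where 8.24% of all genes were, against 4.18% on the lower side. Ciita was not highest in old PBS.

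Among secreted signals, Igf1 in members was 1.08 (1.003 to 1.16) times in the age contrast and 0.87 (0.80 to 0.94) times in the treatment contrast. Tnf had 1.55 (1.39 to 1.72) and 0.71 (0.63 to 0.79) times, beside 1.01 and 0.92 in the other gated macrophages. Il10, which restrains inflammation, had 1.51 (1.33 to 1.71) and 0.56 (0.48 to 0.65) times. Tnf and Il10 were thus both highest in old PBS members. Metrnl had 1.42 (1.31 to 1.54) and 0.87 (0.80 to 0.95) times, beside 1.08 and 1.04 in the others. Pdgfb had 0.78 (0.67 to 0.90) and 1.56 (1.34 to 1.82) times. Gdf3, a growth factor of the TGF-beta family, was at 16.1, 27.5 and 44.8 CPM, and Ccl8, a chemokine, at 272, 264 and 459, both highest in old rMETRNL.

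The 12 genes highest in the age contrast were Myh4, Ckm, Mmp12, Tnnc2, Mgl2, Myl1, Fbxo32, Mmp19, Tnnt3, Acta1, Irf4 and Rccd1. Mmp12 was 5.78 (4.59 to 7.32) times young PBS, beside 1.45 in the others, with 43.4% of its old PBS UMIs in 5 cells. Fbxo32, a ubiquitin ligase, was at 45.2, 171 and 96.5 CPM, 3.79 (3.41 to 4.21) times, beside 2.10. Mmp19, a matrix protease, had 3.88 (3.33 to 4.53) beside 3.07, and Irf4, a factor of alternative activation, 3.66 (2.54 to 5.31) beside 1.86. The other set were genes of muscle fibres. Myh4, a fast myosin, was at 0.721, 16.9 and 1.53 CPM in members, 23.47 times beside 37.14, and Acta1, skeletal actin, at 34.0, 103 and 39.2, 3.02 times beside 4.00. Myogenic marker RNA, which includes Acta1, was highest in old PBS as well, and its part in the result was not tested.

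The 12 genes lowest in the age contrast were Thbs4, Abi3bp, Cxcl5, Fmod, Col1a2, Prg4, Fgfr1, Plxdc2, Aebp1, Sfrp2, Tulp3 and Comp, many of them known from tendon and fibroblasts. Thbs4, a thrombospondin of tendon, was at 87.3, 7.35 and 9.81 CPM, 0.0842 (0.0605 to 0.114) times, and 92.3% of its young PBS UMIs lay in 5 cells. Without the cells holding other-lineage markers its ratio was 1.07, and that of Col1a2, a fibrillar collagen, was 0.82 instead of 0.193. The ratios of Fmod, Prg4 and Aebp1 were above 1 as well without those cells. Thbs4 and Fmod were among the markers by which these cells were chosen, so their change was in part fixed by that choice. By its share in 5 cells, the Thbs4 ratio rested on a few young PBS cells.

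The 12 genes highest in the treatment contrast were Col4a2, Igfbp5, Gpihbp1, Apod, Col18a1, Aqp1, Col4a1, Hspg2, Cxcl12, Cxcl9, Egfl7 and Cdh5, many of them known from endothelium and its basement membrane. Col4a2, a basement membrane collagen, was 9.07 (5.60 to 15.58) times old PBS and 3.12 times without the cells holding other-lineage markers. Cdh5, the endothelial cadherin, had 3.94 (2.72 to 5.87) and 0.99 times. Cdh5 was itself among the endothelial markers by which those cells were chosen, so its fall was in part fixed by that choice. Aqp1, a water channel, had 5.81 (3.96 to 8.81) and 1.20 times. With cells thinned to 5000 UMIs before gating, Apod, Aqp1 and Cdh5 turned direction, with log2 ratios of -0.66, -0.40 and -0.36. Endothelial marker RNA was highest in old rMETRNL members, as given above.

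The 12 genes lowest in the treatment contrast were the 6 muscle fibre genes above, Mmp19, Crem, Nlrp3, B4galt5, Trib1 and Srxn1. Crem, a cyclic AMP-responsive factor, was at 41.5, 87.8 and 39.6 CPM, 2.12 (1.87 to 2.40) times in the age contrast and 0.45 (0.39 to 0.52) times in the treatment contrast. Nlrp3, the inflammasome sensor, was at 52.8, 103 and 48.5, with 1.94 (1.74 to 2.17) and 0.47 (0.42 to 0.54) times. Trib1, a pseudokinase, was at 72.8, 138 and 69.0, and Srxn1, an antioxidant enzyme, at 17.0, 44.9 and 20.9. In each of these 4 genes young PBS and old rMETRNL were close and old PBS was highest. The other gated macrophages had 1.45 and 0.54 times for Crem and 1.496 and 0.57 times for Nlrp3. Without the cells holding other-lineage markers the members had 2.15 and 0.44 times for Crem and 1.90 and 0.47 times for Nlrp3.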

How the data were processed

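Tibialis anterior muscle was dissociated and sequenced with 10x Genomics droplets, 1 library of pooled mice per group. The deposited matrices hold raw UMI counts per gene and cell, which the authors made with Cell Ranger on mm10. The submitters' processing notes name Cell Ranger 3.1.0 and 5.0.0, and the file header names 5.0.0. Nothing in these counts was normalized. Groups were taken from the sample labels.

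From these counts, cells were filtered and gated by the rule given at the start of the report, and the UMIs of each class were added up per library with Python 3.11.15, numpy 2.4.6, scipy 1.17.1 and pandas 2.3.3. Levels are CPM computed from these sums. A fold is the ratio of 2 such levels with an exact conditional interval, and log2 ratios used a prior count of 0.5. Genes needed at least 50 UMIs. Doublets were scored with Scrublet in scanpy 1.11.5. Its own threshold called 0 cells, so the highest scores at a rate of 0.8% per 1000 barcodes were marked, and marked cells were left out only as an alternative. The summing and ratio steps were tested on simulated data. Figures were drawn with matplotlib 3.10.9.

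The members and the gene lists were chosen with earlier results of these data known. Named genes had at least 100 UMIs in members and were the 25 highest and 15 lowest by the log2 ratio nearest 0 among libraries, with at least 20 CPM in every library, in members for higher genes and in the other gated macrophages for lower ones. Between libraries, the 12 genes each way with at least 100 UMIs in members of both libraries together whose interval bound was furthest from 1 were named, and genes of the lists could be named too. Genes with clone-based symbols and ribosomal and mitochondrial genes were counted but not named. Alternatives changed the UMI minimum, depth, thresholds, scaling, doublets and comparison cells. Some genes are not reported here, and counts over lists include them.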

Additional observations from a re-analysis of the deposited data

Results flagged for a closer look

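Among listed and named genes with at least 100 UMIs in members, 8 were at least 1.5-fold higher in members than in the other gated macrophages in 1 library and at least 1.5-fold lower in another, each beyond counting error, and none of these differences was tested. Genes with smaller folds of mixed direction are not counted here. For the stromal genes, Dcn was at 4.12 in young PBS against 0.51 (old PBS) and 0.508 (old rMETRNL), and Col1a2 at 1.63 in young PBS and 0.382 in old PBS. For the endothelial genes, Cdh5 was at 1.63 in old rMETRNL, 0.552 in young PBS and 0.594 in old PBS, and Gpihbp1 at 2.76 in old rMETRNL, 0.534 in young PBS and 0.399 in old PBS. Cldn5 was at 2.41 in old rMETRNL and 0.534 in young PBS, Egfl7 at 1.96 and 0.351, and Esam at 1.76 and 0.434. The 1 chemokine among them, Cxcl9, was at 1.84 in old rMETRNL and 0.634 in old PBS.

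Signal was also present in barcodes that the cell filter removed. Of them, 15 of the young PBS library, 5 of old PBS and 4 of old rMETRNL met the rest of the rule, and they entered no comparison.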

How the results depend on the processing

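No paired analysis was possible because each group is 1 library, and for the same reason no replicate could be left out. The cause of the shifts was not tested. With the Cx3cr1 threshold alone the shares in young PBS, old PBS and old rMETRNL were 32.5%, 29.6% and 26.6%, with ratios of 0.91 for old PBS over young PBS, 0.90 for old rMETRNL over old PBS, which turned direction, and 0.82 for old rMETRNL over young PBS. At least 2 Cx3cr1 UMIs gave 15.8%, 9.07% and 10.1%, and at least 5 gave 8.88%, 4.21% and 5.14% with 0.47 for old PBS over young PBS. Thinning before the gate gave 14.1%, 8.48% and 8.83% at 10000 UMIs, 9.51% in young PBS and 7.41% in old rMETRNL at 5000 with ratios to young PBS of 0.70 and 0.78, and 3.32%, 2.65% and 2.80% at 2000 with 0.80 and 0.84.

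Against cells passing every arm with under 3 Cx3cr1 UMIs, the counts of genes at least 2-fold higher and lower were 17 and 54. The log2 ratio nearest 0 turned for Tmem176a (-0.061), Cenpe (0.20), Cks1b (0.16), Hist1h2ae (0.050) and Prc1 (0.18). The list medians changed sign for MHC class II (-0.080), lipid-associated (0.057), dissociation stress (-0.28), efferocytosis (0.13), heat shock (-0.21), interferon-stimulated (-0.17), lysosomal (0.087), non-classical monocyte (-0.37) and senescence (0.17) genes. They kept it at -0.15 for NRF2, -0.088 for cell cycle and -0.24 for glycolysis. Other medians close to 0 also changed sign under other settings.

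Thinned to 5000 UMIs, the treatment contrast turned in log2 for Apod (-0.66), Aqp1 (-0.40) and Cdh5 (-0.36). Medians over the other macrophages were 0.22 for MHC class II, -0.27 for NRF2, -0.72 for cell cycle, -0.37 for glycolysis and -0.13 for interferon-stimulated genes. The cell cycle median was 0.43 for old rMETRNL over old PBS and 0.14 over young PBS, and that of the 3 markers -1.05 in the age contrast (-1.02 under the stricter cell filter of 1000 genes and 5% mitochondrial UMIs). Counts were 68 higher and 113 lower in members, 191 lower in the age contrast, 149 higher in the treatment contrast, and 45 higher and 44 lower for old rMETRNL over young PBS.

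A minimum of 20 UMIs gave 200 genes higher in members, 371 higher and 622 lower in the age contrast, 650 and 246 in the treatment contrast and 338 and 241 for old rMETRNL over young PBS. A minimum of 200 gave 53, then 66 and 115, 70 and 19, and 29 and 27. Without the highest doublet scores, 65 genes were lower for old rMETRNL over young PBS. Scaling by the median of ratios gave a lysosomal median of -0.075 in the treatment contrast. Leaving out cells holding other-lineage markers, an alternative chosen after seeing the data, turned the age log2 ratio of Aebp1 (0.83), Fmod (0.52), Prg4 (0.39) and Thbs4 (0.11) and the treatment ratio of Cdh5 (-0.027). Fmod, Thbs4 and Cdh5 were themselves among those markers. The same alternative gave 204 genes lower in the age contrast, 187 higher in the treatment contrast and 35 lower for old rMETRNL over young PBS. Counts of genes depend on depth, and the spread between mice is unknown.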
